A study of Homo sapiens with 6 samples.

Results

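The LATS kinases and the YAP pathway were followed here through 10 genes of the Hippo cascade: the kinases LATS1, LATS2, STK3 and STK4, the scaffold SAV1, the coactivators YAP1 and WWTR1 (which encodes TAZ), and the target genes CCN1, CCN2 and F3. Members were the genes that alone were named by a probe set under their symbol or, for CCN1 and CCN2, under the older symbols CYR61 and CTGF. All 10 were found, on 117 probe sets, out of 18656 genes on 224320 probe sets that name 1 gene. The arrays came from AGS, an established human gastric adenocarcinoma cell line. In 3 arrays the cells had received an anti-miR oligonucleotide inhibitor of miR-25-3p, and in 3 arrays a non-targeting control RNA. Both groups were transfected with oligofectamine at about 70% confluency and again after 24 h, with RNA harvested at 48 h, so the controls share the lipid, the repeat transfection and the time with the inhibitor samples. No untransfected cells, no second inhibitor and no second cell line entered the comparison, and the mature microRNA was not measured. The labels call the 3 samples of a group biological replicates without saying that they came from separate cultures, and the p-values measure only the spread between these samples.

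In the Hippo cascade, the kinases STK3 and STK4 (MST2 and MST1) with SAV1 activate LATS1 and LATS2, which phosphorylate YAP and TAZ and so keep them out of the nucleus or mark them for degradation. Unphosphorylated YAP and TAZ bind TEAD factors on DNA and switch on genes of growth, adhesion and matrix signalling. Most of this control acts on protein phosphorylation and location, which messenger RNA arrays do not read. LATS2 has been reported in other cancer cells as a target of miR-25, and LATS2 is itself switched on by YAP in a feedback loop.

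The microRNA under test and its relatives are shown because an inhibitor acts through pairing with the mature strand, and relatives with the same seed (bases 2 to 8, in capitals) can pair with the same messages. In RefSeq (GRCh38.p14), 6 mature names carry this seed. The strand of MIR25 lies at chr7:100093571-100093592 on the minus strand.
hsa-miR-25-3p: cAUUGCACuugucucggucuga
hsa-miR-32-5p: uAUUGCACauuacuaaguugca
hsa-miR-92a-3p: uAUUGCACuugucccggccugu
hsa-miR-92b-3p: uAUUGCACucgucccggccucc
hsa-miR-363-3p: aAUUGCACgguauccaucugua
hsa-miR-367-3p: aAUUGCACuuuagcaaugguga

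Values are log2 signals. A gene value is the mean over the exon-sized probe sets of the gene, and a change is inhibitor minus control on the log2 scale with its standard error (SE) and 95% interval from limma. Where probe sets are joined by their median instead, it is the median of their signals on each array, not of their changes. No member passed the threshold of an adjusted p of 0.05: limma called 0 of 10 members and 0 of 18656 genes (0.0%), and the smallest adjusted p of any gene was 0.79. At an unadjusted p under 0.05 the members called were CCN1 and F3, 2 of 10. By the same rule 6.12% of all genes were called. Both were lower, where 3.16% of all genes were, and 0 of 10 were higher, where 2.95% were. The inhibitor arrays lay wholly below the control arrays for CCN1, F3 and YAP1, 3 of 10, where this held for 7.68% of all genes, and wholly above for 0 of 10, where it held for 5.19%. Changes were positive for LATS1 and STK3, 2 of 10, where 50.5% of all genes were positive, and negative for 8 of 10, where 49.3% were. The median change of the members was -0.027, and the median over all genes was 0.0021. An exact permutation test of 3 against 3 arrays cannot go below p = 0.1, so it cannot pass for any single gene.

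In gene values the 6 arrays were about as alike between groups (correlations of 0.9904 to 0.9944) as within them (0.9914 to 0.9948), and control replicate 1 stood furthest from the rest. Epithelial markers were bright, with EPCAM at 10.57 in inhibitor and 10.36 in control arrays and KRT8 at 11.97 in inhibitor and 12.03 in control arrays, while CDH1, which encodes E-cadherin, was at 6.11 and 6.10. Of the gastric and intestinal markers, MUC5AC and HNF4A had no probe set naming them alone, and the 7 measured ran from TFF2, at 4.39 in inhibitor and 4.57 in control arrays, to GATA6, at 9.93 in inhibitor and 10.04 in control arrays. The average of the 7 gastric and intestinal markers measured was 7.40 to 7.44 in inhibitor arrays, below the 7.46 to 7.61 of control arrays. SOX9 (-0.28), CDX2 (-0.16) and GATA6 (-0.11) had non-overlapping groups, while CDX1 (0.17) and FOXA2 (0.095) had positive changes with overlap. The average of the 6 leukocyte markers measured was 5.11 to 5.22 in inhibitor arrays, above the 4.99 to 5.06 of control arrays. Among them CD14 (0.46) and CSF1R (0.16) were higher in every inhibitor array and CD68 (-0.11) was lower in every one. Their levels ran from PTPRC, which encodes the general leukocyte antigen CD45, at 2.62 in inhibitor and 2.55 in control arrays, to LYZ at 8.79 in inhibitor and 8.84 in control arrays. Of the other markers, EPCAM (0.21) was higher in every inhibitor array, and the smooth muscle markers ACTA2 (-0.15) and DES (-0.11) were lower in every one. The endothelial marker PECAM1 (-0.46), dim at 3.15 in inhibitor and 3.61 in control arrays, had overlapping groups. Over all genes, 7.68% had all inhibitor arrays below all control arrays and 5.19% had them above. None of these markers passed the adjusted threshold. The part of these shifts in the results was not tested. The means of the fibroblast list, genes of a cell type known for high CCN1 and CCN2, lay between 4.25 and 4.31 in inhibitor arrays and between 4.19 and 4.34 in control arrays.

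**Figure D1:**
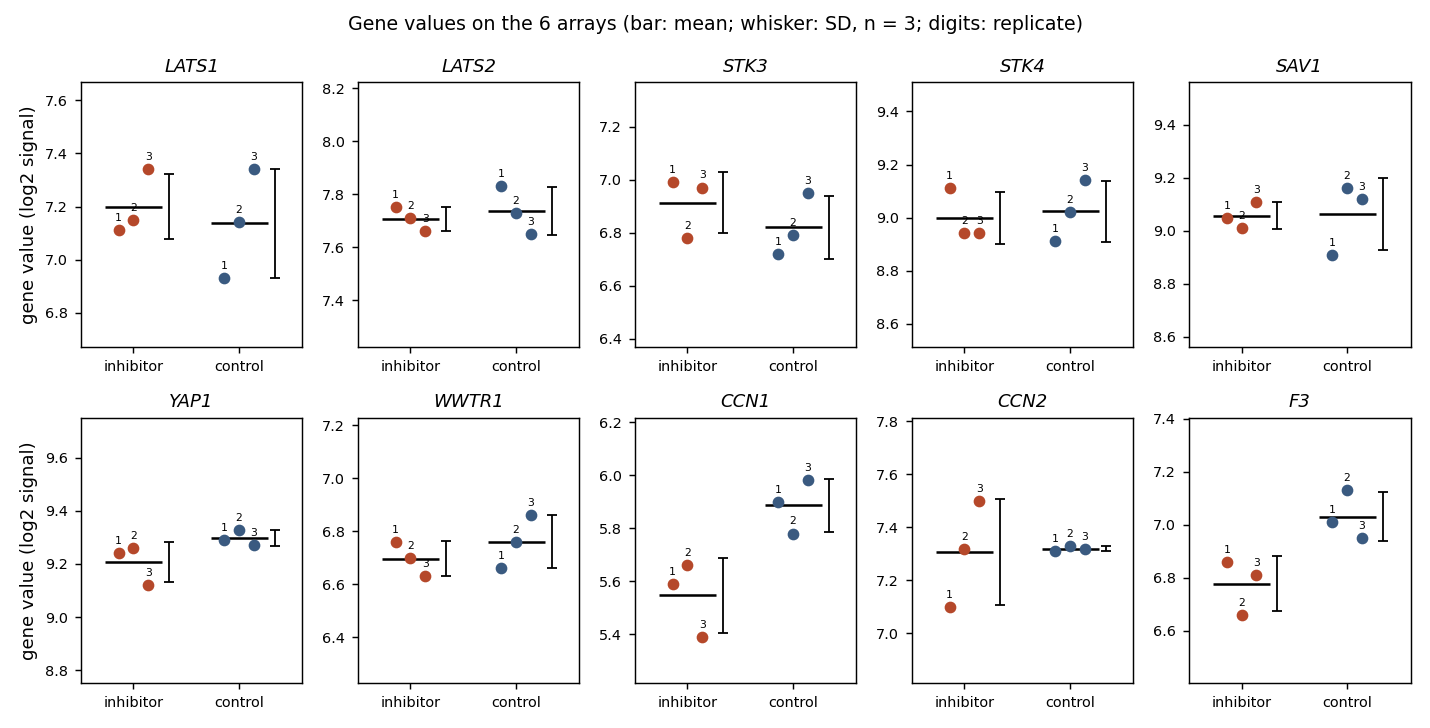
Gene values (log2 signal, y axis) of the 10 genes on each array, inhibitor left of control, with points numbered by replicate, a bar at the mean and a whisker of 1 SD (n = 3). Every panel spans the same height of 1 on the log2 scale. The groups of points are apart for YAP1, CCN1 and F3 and overlap for the other 7 genes.

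LATS2, the kinase reported as a miR-25 target, was at 7.75, 7.71 and 7.66 in inhibitor arrays, against 7.83, 7.73 and 7.65 in control arrays. The groups overlapped fully, with the highest and the lowest value both among the controls. The change was -0.028 (SE 0.089; adjusted p = 0.97 in limma), with a 95% interval of -0.23 to 0.17. On the linear scale the interval runs from 0.852-fold to 1.13-fold, so a larger rise than 1.13-fold in LATS2 message lies outside it. In a bulk RNA sample, fewer cells with a message and less message per cell cannot be told apart. Of the 8 LATS2 probe sets, 3 had a positive change, 4 a negative change and 1 a change of exactly 0, between -0.47 and 0.34, and none separated the groups of arrays. Its brightest probe set averaged 10.97 in inhibitor and 10.96 in control arrays.

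LATS1, the paralogous kinase, was at 7.11, 7.15 and 7.34 in inhibitor arrays, against 6.93, 7.14 and 7.34 in control arrays. These values overlap from end to end, apart from the low control replicate 1. The change was 0.060 (SE 0.12; adjusted p = 0.94 in limma), with a 95% interval of -0.22 to 0.34. Of its 12 probe sets, 8 were positive and 4 negative. One of them, 8130123, averaged 8.10 in inhibitor and 8.52 in control arrays, a change of -0.42 (SE 0.14; adjusted p = 0.80 in limma over all probe sets). The groups were fully apart there, opposite in sign to the gene value.

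STK3, one of the kinases that activate LATS, was at 6.99, 6.78 and 6.97 in inhibitor arrays, against 6.72, 6.79 and 6.95 in control arrays. The ranges overlap, with the highest value in an inhibitor array and the lowest in a control. Its change of 0.094 (SE 0.10; adjusted p = 0.88 in limma) was the most positive of the members. The 19 probe sets split into 11 positive and 8 negative, between -0.49 and 0.65. STK4, its paralogue, was at 9.11, 8.94 and 8.94 in inhibitor arrays, against 8.91, 9.02 and 9.14 in control arrays. Its change was -0.025 (SE 0.10; adjusted p = 0.97 in limma), with 11 of 18 probe sets positive. The groups overlap, and inhibitor replicate 1 and control replicate 3 were the high arrays. SAV1, the scaffold that joins these kinases to LATS, was at 9.05, 9.01 and 9.11 in inhibitor arrays, against 8.91, 9.16 and 9.12 in control arrays. The inhibitor arrays lay inside the range of the controls, and the change was -0.010 (SE 0.097; adjusted p = 0.99 in limma), with 4 probe sets positive and 4 negative.

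The 5 genes of the kinase module therefore had changes between -0.028 and 0.094, and their 95% intervals together ran from -0.25 to 0.34. Their messages did not differ beyond the spread between arrays. For each gene, a difference of a size inside its own interval is not excluded by 3 arrays a group.

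**Figure D2:**
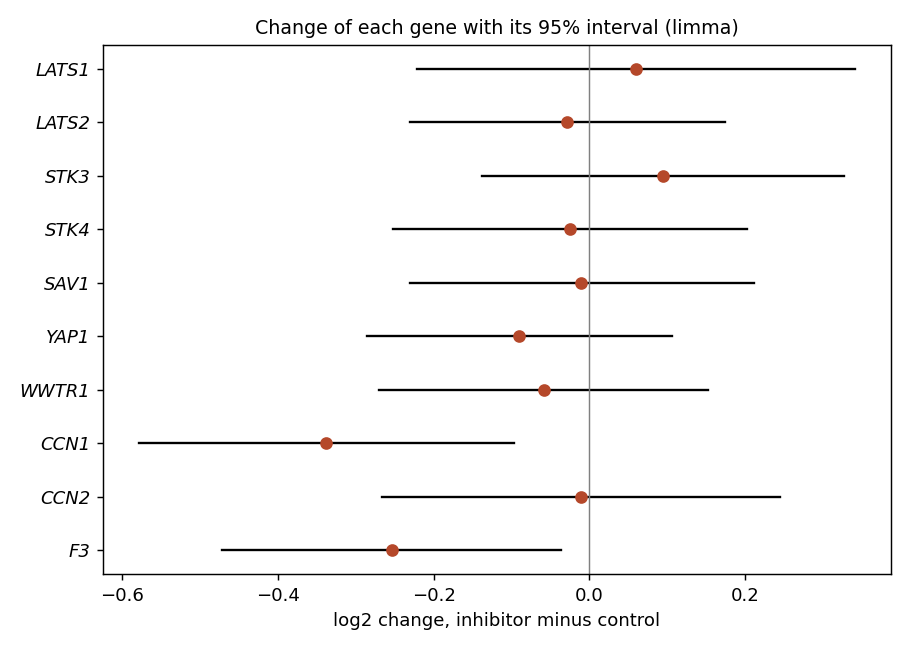
Change of each gene (inhibitor minus control, log2 scale, x axis; point) with its 95% interval from limma (line). The intervals of CCN1 (-0.58 to -0.096) and F3 (-0.47 to -0.036) lie below 0 before any adjustment for the number of genes, and those of the other 8 genes include 0.

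YAP1, the coactivator that LATS inhibits, was at 9.24, 9.26 and 9.12 in inhibitor arrays, against 9.29, 9.33 and 9.27 in control arrays. Every inhibitor array lay below every control array, but the nearest arrays differed little, and the change of -0.090 (SE 0.086; adjusted p = 0.86 in limma) had a 95% interval of -0.29 to 0.11. Of 12 probe sets, 9 were negative. Probe set 7943404 read 7.21, 7.33 and 6.87 in inhibitor arrays, against 7.59, 7.69 and 7.64 in control arrays. Probe set 7943405 separated the groups the other way, with 10.11, 10.04 and 9.94 in inhibitor arrays, against 9.64, 9.73 and 9.77 in control arrays. With the brightest probe set alone the change of YAP1 was 0.093, the opposite sign.

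WWTR1, whose product TAZ is the paralogue of YAP, was at 6.76, 6.70 and 6.63 in inhibitor arrays, against 6.66, 6.76 and 6.86 in control arrays. The groups overlap, and the change was -0.059 (SE 0.093; adjusted p = 0.91 in limma). This mean joins probe sets that differ widely: 7 of 9 were negative, and the extremes were -1.26 and 2.23. Probe set 8091431 read 4.82, 5.58 and 5.11 in inhibitor arrays, against 2.13, 4.02 and 2.67 in control arrays. All inhibitor arrays lay above all controls there, at dim levels; a change of 2 or more in either direction was seen in 0.184% of all probe sets. Probe set 8091426 read 5.99, 5.76 and 4.89 in inhibitor arrays, against 6.66, 6.88 and 6.89 in control arrays, so here all inhibitor arrays lay below. Neither passed adjustment over all probe sets in limma (adjusted p = 0.76 for both).

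The value of WWTR1 therefore depends on how its probe sets are joined. The change was -0.47 (SE 0.18) with their median signal on each array. It was -0.37 (SE 0.085) without the dimmest 30% of all probe sets on the array and -0.34 without 8091431. The median signal was that of probe set 8091429 on every array, while the median of the 9 probe-set changes was -0.18. The adjusted p in limma was 0.83 with the median and 0.73 without the dim probe sets, and it ran from 0.73 to 0.985 over the settings run for this gene. Leaving out single arrays gave -0.11 to -0.0094, the second of these without control replicate 3. The sign stayed negative in each.

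**Figure D3:**
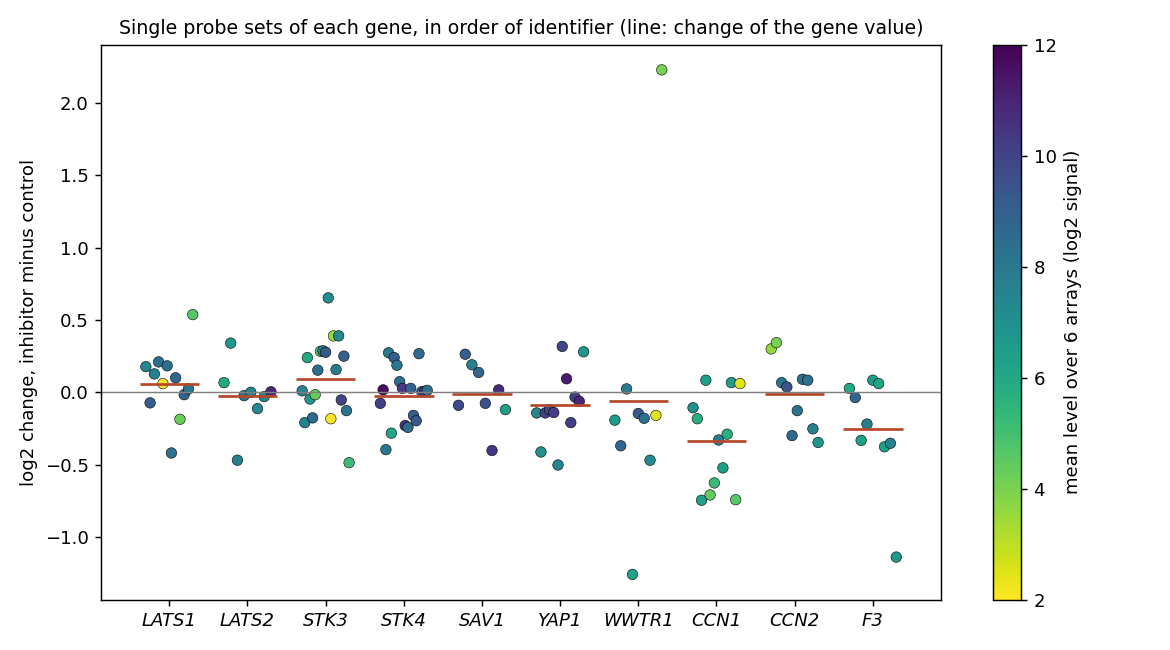
Change of every probe set (inhibitor minus control, log2 scale, y axis) of the 10 genes, ordered within a gene by identifier and coloured by mean level (log2 signal); the red line is the change of the gene value. One dim probe set of WWTR1 stands at 2.23 above 7 negative ones, and 9 of 12 probe sets of CCN1 and of YAP1 lie below 0.

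CCN1 (CYR61), a secreted matricellular protein gene that YAP and TEAD switch on, was at 5.59, 5.66 and 5.39 in inhibitor arrays, against 5.90, 5.78 and 5.98 in control arrays. The groups did not overlap, with the controls higher and inhibitor replicate 3 the lowest. The change was -0.34 (SE 0.11), or 0.791-fold with a 95% interval of 0.67-fold to 0.935-fold, at an unadjusted p of 0.012 and an adjusted p of 0.79 in limma. Of 12 probe sets, 9 were negative, and the positive ones reached at most 0.083. Probe set 7902690 read 5.69, 6.02 and 6.20 in inhibitor arrays, against 6.72, 7.01 and 6.42 in control arrays. Probe set 7902692 read 4.40, 3.62 and 4.15 in inhibitor arrays, against 4.67, 4.56 and 5.07 in control arrays. Both separated the groups of arrays. CCN1 kept a negative change under the 16 alternatives that gave a value for it, between -0.52 with the median of probe sets and -0.26 without inhibitor replicate 3, and its adjusted p in limma ran from 0.695 to 0.91 over them.

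F3, which encodes tissue factor, the cell-surface starter of coagulation and another YAP target, was at 6.86, 6.66 and 6.81 in inhibitor arrays, against 7.01, 7.13 and 6.95 in control arrays. Again the control arrays were the higher ones without overlap. The change was -0.25 (SE 0.096), or 0.839-fold, at an unadjusted p of 0.027 and an adjusted p of 0.79 in limma. Of 9 probe sets, 6 were negative, and the most negative, 7917884, read 6.53, 6.50 and 5.31 in inhibitor arrays, against 7.37, 7.46 and 6.92 in control arrays. Without it the change of F3 was -0.14 (SE 0.10), and with the brightest probe set alone it was -0.037 (SE 0.18). Without control replicate 2 or inhibitor replicate 2 the change was -0.21 or -0.20 and the unadjusted p in limma was 0.10 in each.

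CCN2 (CTGF), the connective tissue growth factor gene and the target most often used as a YAP readout, was at 7.10, 7.32 and 7.50 in inhibitor arrays, against 7.31, 7.33 and 7.32 in control arrays. The controls lay within a narrow band in the middle of the inhibitor arrays. The change was -0.011 (SE 0.11; adjusted p = 0.99 in limma), with a 95% interval of -0.27 to 0.25 and 6 of 10 probe sets positive. CCN1 and F3 on the one hand and CCN2 on the other thus stood at different estimates. Whether their changes differ from each other was not tested.

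The upstream sequences of CCN2 and F3 are shown as those of a pair of targets of the same coactivators. Whether the sequences relate to the changes of these genes was not tested. Capitals mark matches to GGAATG, the core of the site that TEAD factors bind, and to TGANTCA. The latter pattern allows any base in the middle, where the usual site of AP-1 factors has G or C. Both were searched on both strands in the 250 bases before the gene start (RefSeq, GRCh38.p14). The motifs do not overlap each other here. CCN2 lies on the minus strand (chr6:131951373-131951622) and F3 on the minus strand (chr1:94541760-94542009).
CCN2: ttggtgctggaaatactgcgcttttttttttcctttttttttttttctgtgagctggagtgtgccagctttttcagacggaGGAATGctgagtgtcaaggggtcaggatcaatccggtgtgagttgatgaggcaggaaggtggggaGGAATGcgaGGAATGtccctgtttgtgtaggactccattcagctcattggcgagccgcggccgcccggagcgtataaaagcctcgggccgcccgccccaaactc
F3: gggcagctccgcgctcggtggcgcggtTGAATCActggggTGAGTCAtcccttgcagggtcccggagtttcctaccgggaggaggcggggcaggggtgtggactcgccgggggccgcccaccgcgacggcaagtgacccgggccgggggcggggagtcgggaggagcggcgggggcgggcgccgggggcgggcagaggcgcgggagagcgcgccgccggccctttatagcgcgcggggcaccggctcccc

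CCN2 held 3 matches to GGAATG, which begin 169, 104 and 95 bases before the start, and none to TGANTCA. F3 held 2 matches to TGANTCA, which begin 223 and 210 bases before the start, and none to GGAATG. The first of these reads TGAATCA and the second TGAGTCA. Over the 35116 such windows in RefSeq, 11.9% held GGAATG at least once and 0.0797% held it 3 times or more, while 6.57% held TGANTCA at least once and 0.402% held it 2 times or more. Windows were found for 8 of the 10 members, not for CCN1 or STK3, so this pair of targets leaves CCN1 out. The other windows with a match were those of YAP1 (1 match to GGAATG) and LATS1 (1 match to TGANTCA in 1 of its 2 windows). A match is a description of letters and not a measured site.

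Beyond the 10 genes, the regulators and scaffolds of the cascade stood evenly about 0. The 31 of them analysed here included 16 with a positive and 15 with a negative change, and had a median of 0.0028. None passed the adjusted threshold, and 1 of 31 was called at an unadjusted p under 0.05, where 6.12% of all genes were, so the list does not exceed the background: LIMD1, a LIM protein that binds and restrains LATS. LIMD1 was at 6.59, 6.25 and 6.35 in inhibitor arrays, against 6.81, 6.62 and 6.62 in control arrays, a change of -0.29 (SE 0.12; adjusted p = 0.79 in limma) with 10 of 11 probe sets negative. All its inhibitor arrays lay below its control arrays. The STRIPAK subunit STRN4 had -0.19 (SE 0.098) and WWC1, the scaffold KIBRA, -0.19 (SE 0.11) with 25 of 28 probe sets negative. On the positive side were the atypical cadherin FAT4 at 0.21 (SE 0.11), the STRIPAK subunit SLMAP at 0.15 (SE 0.090) and RASSF5 at 0.23 (SE 0.13). FAT4 was dim, at 3.51 to 3.72 in inhibitor and 3.22 to 3.55 in control arrays, and had -0.30 with its brightest probe set.

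Partners and binders of YAP and TAZ had 5 positive and 17 negative changes of 22 measured, where 49.3% of all genes were negative, and 0 were called at an unadjusted p under 0.05. The list median was -0.061. The TEAD factors, through which YAP and TAZ reach DNA, were all negative but small: TEAD1 had -0.049 (SE 0.089), TEAD2 -0.084 (SE 0.096), TEAD3 -0.14 (SE 0.099) and TEAD4 -0.034 (SE 0.089), with overlapping groups of arrays for each. TEAD1 stood at 0.027 when its probe sets were joined by their median and at 0.0095 when 1 array was left out, and TEAD4 at 0.013 when 1 array was left out. The p53-binding protein gene TP53BP2 had -0.17 (SE 0.090), the casein kinase gene CSNK1D -0.14 (SE 0.086) and the p53 relative TP73 -0.13 (SE 0.087). TP53BP2 and CSNK1D stood at 0.023 each when probe sets were joined by their median signal. Yet 12 of 20 probe sets of TP53BP2 and 13 of 15 of CSNK1D were negative. On the other side the transcription factor RUNX3 had 0.23 (SE 0.11), turning to -0.057 with its brightest probe set, the tyrosine kinase YES1 0.16 (SE 0.089, 7 of 8 probe sets positive) and the dim TEAD cofactor VGLL3 0.27 (SE 0.16).

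The published pan-cancer set of YAP and TAZ target genes, which includes LATS2, CCN1, CCN2 and F3, had 5 positive and 17 negative changes of 22 measured, where 49.3% of all genes were negative, with a median of -0.064. None passed the adjusted threshold, and 3 of 22 were called lower at an unadjusted p under 0.05, where 3.16% of all genes were: CCN1, F3 and ANKRD1, a muscle ankyrin-repeat gene that YAP switches on. ANKRD1 was at 8.87, 8.93 and 8.84 in inhibitor arrays, against 8.99, 9.18 and 9.10 in control arrays, a change of -0.21 (SE 0.090, 9 of 11 probe sets negative). Its groups did not overlap. CCN1 and F3 were already counted among the 10 members. Without the members of the 10-gene set, 13 of the other 18 targets were negative, and the median was again -0.064. Of these 18, 1 was called lower at an unadjusted p under 0.05 in limma, ANKRD1, and 0 were called higher. The averages of the 22 targets were 6.51, 6.40 and 6.53 in inhibitor arrays, against 6.52, 6.56 and 6.53 in control arrays. These averages include FJX1, the target with the widest spread within groups. FJX1 read 4.87, 3.92 and 4.91 in inhibitor arrays, against 3.21, 4.36 and 3.95 in control arrays. The pattern of the averages over single arrays therefore leans on this gene, and averages without FJX1 were not taken.

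Among targets with positive changes, FJX1 had 0.72 (SE 0.33) on 2 probe sets, with -0.013 on the brighter of them. NT5E, the ecto-nucleotidase CD73, had 0.17 (SE 0.11) at dim levels of 3.16 to 3.43 in inhibitor and 3.02 to 3.26 in control arrays. MYOF, a membrane-repair ferlin gene with 55 probe sets, had 0.035 (SE 0.083). AMOTL2 and PTPN14 are on the lists of partners and of targets, so these lists are not separate evidence.

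**Figure D4:**
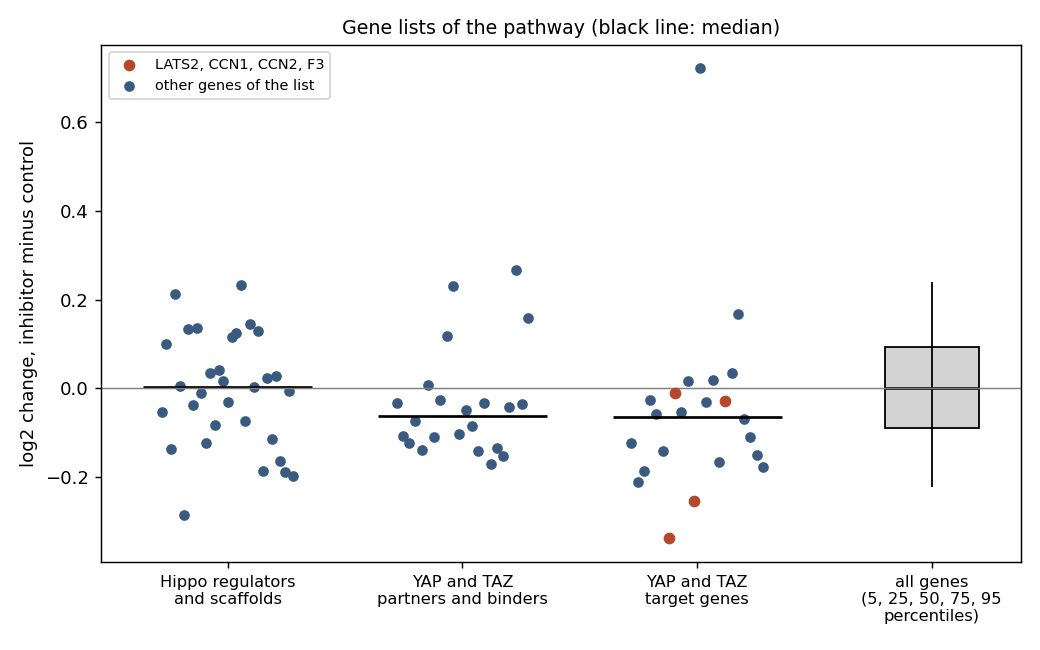
Change of each gene (inhibitor minus control, log2 scale, y axis) in 3 lists of the pathway, with list medians as black lines; the box and whisker on the right give the 5, 25, 50, 75 and 95 percentiles of all 18656 genes. The medians are 0.0028, -0.061 and -0.064 from left to right, LIMD1, CCN1 and F3 lie below the 5 percentile of all genes at -0.22, and VGLL3 and FJX1 lie above the 95 percentile at 0.24.

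At the level of single probe sets, 62 of the 117 were negative, where 49.8% of all probe sets were, 54 were positive and 1 was at 0. All inhibitor arrays were lower than the controls in 17 of them (6.32% of all probe sets) and higher in 7 (5.89% of all). A change of 1 or more in either direction was seen in 3 of them, 2 of WWTR1 and 1 of F3, and in 3.95% of all. By the test, 12 of the 117 (10.3%) were at an unadjusted p under 0.05, where 6.21% of all probe sets were, and 0 passed the adjusted threshold (0.0% of all). Lower ones made up 10 of the 117, where 3.09% of all probe sets were lower, and higher ones 2 of the 117, where 3.11% were higher. WWTR1 and CCN1 held 2 of the lower ones each, and LATS1, STK3, STK4, SAV1, YAP1 and F3 held 1 each. The higher ones belonged to STK3 and WWTR1. LATS2 and CCN2 had none. Probe sets of 1 gene share its RNA and are not replicates of the condition.

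**Figure D5:**
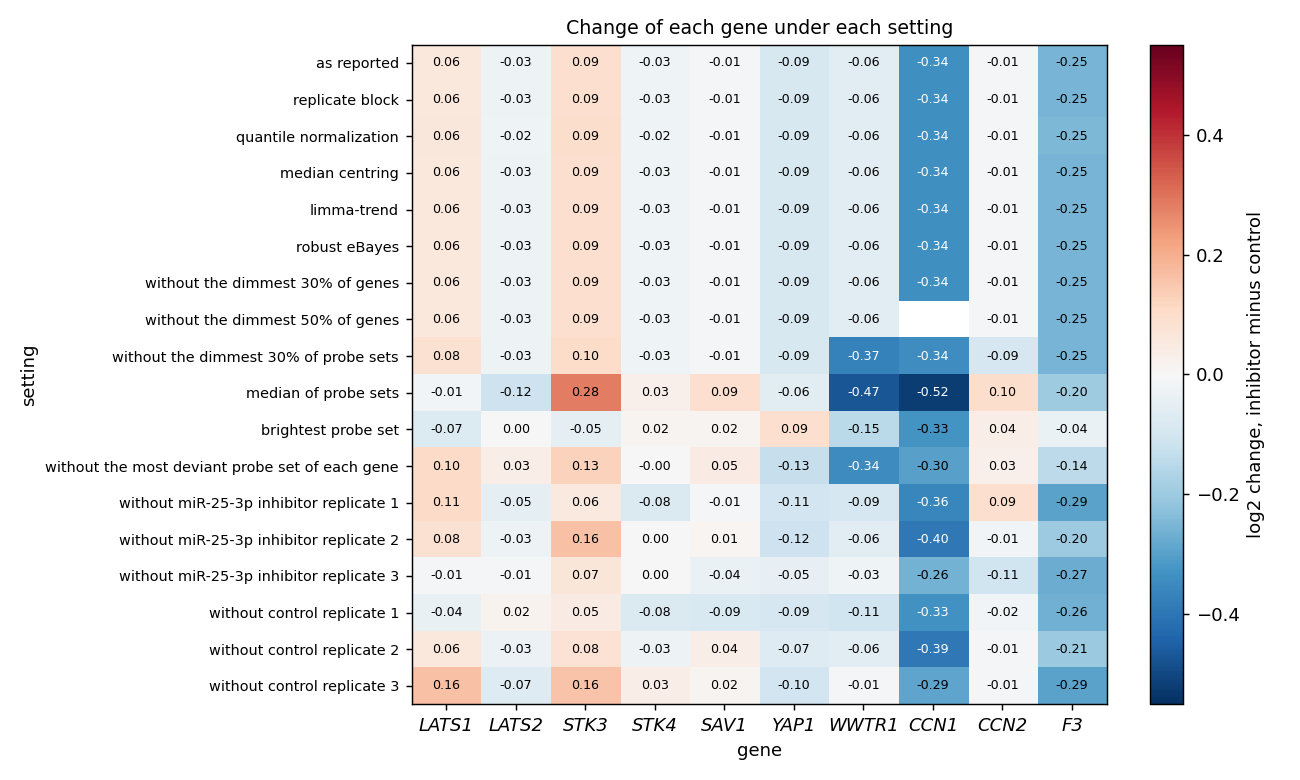
Change of each gene (inhibitor minus control, log2 scale, numbers and colour) as reported and under each alternative setting; the blank cell is CCN1, which is among the dimmest 50% of genes. CCN1, F3 and WWTR1 are negative in every filled row, while the signs of the other 7 genes turn in at least 1 row.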

How the data were processed

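Messenger RNA was measured on 6 Affymetrix arrays. The deposited table holds log2 expression values per exon-sized probe set, made with RMA per the submitters' processing notes, which also name Transcriptome Analysis Console and Affymetrix Expression Console but no versions. RMA puts arrays on 1 scale, which hides any global shift. The genome build and settings are not given in the sources used here. Gene names came from the platform's annotation, with older symbols updated through RefSeq. Gene values are means of the probe sets naming 1 gene, without a filter on dim genes. Groups were compared with lmFit and eBayes in limma 3.58.1 (R 4.3.3), without a block, with Benjamini-Hochberg adjustment over all 18656 genes or all 224320 probe sets. The fit was run on arrays simulated from its own variance model, with planted changes larger than the gene-level changes of the members. That check does not bear on whether small changes are absent here. The number of arrays limits the precision, and signal over background was not used here. Named were the 10 members, the TEAD genes and up to 3 genes per direction with the smallest p of each list. The members and lists were chosen with earlier results of these data known. Alternatives covered the replicate block, left-out arrays, normalization, dim-gene filters, the joining of probe sets and the variance estimate. The labels do not say that equal replicate numbers mark a shared batch, so replicate numbers were not treated as pairs. Deviations of same-numbered arrays correlated at -0.032, -0.040 and 0.17, and those of differently numbered arrays at -0.21 to 0.21.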

Additional observations from a re-analysis of the deposited data

How the results depend on the processing

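The count of called genes, 0, stayed 0 under each alternative except that leaving out arrays gave 0 to 1, the 1 being RGPD4 without control replicate 3. With the replicate block 0 genes and 0 member probe sets were called, 1161 genes were at an unadjusted p under 0.05 against 1141 without it, and the p was 0.027 for CCN1 and 0.049 for F3, so it changed no call. The 2 members at an unadjusted p under 0.05 became 0 with the brightest probe set and 1 without the dimmest 50% of genes, which leaves out CCN1, and they were 1 to 2 when arrays were left out, 1 without control replicate 2 or inhibitor replicate 2. With the median of probe sets the 2 were WWTR1 and CCN1. Without the dimmest 30% of probe sets they were 3, WWTR1 joining. Signs turned with the brightest probe set for LATS1 (-0.073), LATS2 (0.0033), STK3 (-0.053), STK4 (0.017), SAV1 (0.017), YAP1 (0.093) and CCN2 (0.037). With the median signal of probe sets they turned for LATS1 (-0.015), STK4 (0.028), SAV1 (0.093) and CCN2 (0.098). The median of the probe-set changes was 0.08 for LATS1, 0.01 for STK4, -0.03 for SAV1 and 0.052 for CCN2. By that measure only STK4 and CCN2 of these genes turned. Leaving out the most deviant probe set of each gene, a setting chosen after seeing the data, turned LATS2 (0.035), SAV1 (0.046) and CCN2 (0.027); there the 2 members at an unadjusted p under 0.05 were CCN1 and WWTR1, not F3. Over left-out arrays LATS1 ran from -0.042 to 0.16, LATS2 from -0.070 to 0.017, STK4 from -0.082 to 0.035, SAV1 from -0.085 to 0.038 and CCN2 from -0.11 to 0.091. The median of the regulator list ran from -0.048 (without control replicate 1) to 0.029 over left-out arrays. The median of the partner list was -0.0033 with the brightest probe set, -0.095 with the median of probe sets and -0.093 without the dimmest 30% or 50% of genes, and that of the target list kept its sign, between -0.11 and -0.033 over the settings other than left-out arrays. The cause was not tested.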
